A study of Mus musculus with 8 samples.

Results

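The mRNA levels of 10 genes for calcium-binding proteins were analysed in follicular T cells and their non-follicular counterparts: the S100 genes S100a4, S100a6, S100a10, S100a11 and S100a13 and the annexin genes Anxa1, Anxa2, Anxa4, Anxa5 and Anxa6. They were taken by gene name from the array annotation, 10 of 29924 gene names, and all 10 were among the 15764 genes that could be tested. The study asked how gene expression in follicular T cells relates to that of naïve CD4 T and Treg cells. Cells were sorted from peripheral lymph nodes (pLN) of B6.Cg-Foxp3<tm1Mal> mice, aged 8 to 14 weeks, in which EGFP marks Foxp3-expressing cells, 12 and 25 days (d12, d25) after KLH in alum had been injected s.c.. Naïve T (Tnaive) cells were GFP-, PD1-low and GL7-, TFH cells were GFP-, PD1-high and GL7+, Treg cells were GFP+, PD1-low and GL7-, and TFR cells were GFP+ and PD1-high irrespective of GL7. RNA of 25 ng from a pool of 8 to 15 mice of both sexes was hybridized per one-color array, with 1 array for each cell type at each day. Hence a cell type had 2 arrays that differ in day, a cell type at 1 day had no replicate, and p values measure only the spread between these arrays. All mice were immunized and all carried the reporter allele. The Tnaive gate was set by low or absent markers and can hold other non-follicular CD4 T cells. Cells of Peyer's patches were not analysed here.

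S100 proteins are small EF-hand proteins that bind calcium and then expose a surface for partner proteins, often acting as dimers. Annexins bind phospholipid membranes in the presence of calcium and take part in membrane organization, vesicle traffic and repair. The families meet in complexes of an S100 dimer with the annexin N-terminus, of which S100A10 with annexin A2 and S100A11 with annexin A1 are the best known, and in T cells S100A4 and S100A6 mark effector and memory cells.

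Levels are given as normalized processed signal in relative units (RU) and each gene was represented by its brightest probe. The feature extraction software scored all 10 representing probes as well above background on each of the 8 arrays, with no saturated spot. Differences are log2 differences in level from a limma fit of cell type and day and are written with their standard error (n = 2 for each cell type). Adjusted p values are by Benjamini-Hochberg, taken over the whole set of tested genes. A gene is said to rise or fall only at an adjusted p below 0.05. All S100 members lie on chromosome 3. The probes of S100a4 and S100a6, which lie close together there and moved alike, are shown because shared sequence could let them cross-hybridize. In build NCBI37 the probe of S100a4 is at chr3:90409734-90409793 and that of S100a6 at chr3:90418160-90418219, both on the plus strand. The files assign both to RefSeq mRNAs of these genes, that is to exonic sequence. Both have 60 bases and are written 5′ to 3′, with their longest shared run in capitals.

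S100a4: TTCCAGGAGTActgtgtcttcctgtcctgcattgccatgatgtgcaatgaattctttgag

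S100a6: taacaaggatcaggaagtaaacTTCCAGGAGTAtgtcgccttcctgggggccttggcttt

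The shared run was 11 bases long. The second S100a4 probe (chr3:90409908-90409967) shared a run of at most 5 bases with the S100a6 probe. It gave log2 differences of 2.13 between TFH and Tnaive cells and 1.86 between TFR and Treg cells, as against 2.14 and 1.84 for the representing probe.

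Promoter sequences of RefSeq (assembly GRCm38.p6) were found for 8 of the 10 members. The 250 bases before the start are shown for S100a4, S100a11 and Anxa2, which all rose in both follicular cell types and hold a motif marked below. S100a6 and Anxa4 also rose in both, but their windows held neither TATAAA nor TGANTCA. Capitals mark TATAAA and TGANTCA, the latter being the site known for AP-1, on either strand.

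S100a4 (chr3:90603520-90603769, plus strand): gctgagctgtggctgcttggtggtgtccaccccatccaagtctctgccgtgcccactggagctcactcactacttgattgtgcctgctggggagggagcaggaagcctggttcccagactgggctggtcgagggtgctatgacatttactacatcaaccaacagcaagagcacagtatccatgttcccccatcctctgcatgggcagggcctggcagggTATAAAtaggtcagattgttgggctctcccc

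S100a11 (chr3:93520246-93520495, plus strand): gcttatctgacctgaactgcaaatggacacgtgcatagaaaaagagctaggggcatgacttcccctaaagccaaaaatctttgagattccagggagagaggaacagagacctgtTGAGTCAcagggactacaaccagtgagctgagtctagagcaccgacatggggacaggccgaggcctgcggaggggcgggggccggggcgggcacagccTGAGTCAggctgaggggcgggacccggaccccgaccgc

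Anxa2 (chr9:69453433-69453682, plus strand): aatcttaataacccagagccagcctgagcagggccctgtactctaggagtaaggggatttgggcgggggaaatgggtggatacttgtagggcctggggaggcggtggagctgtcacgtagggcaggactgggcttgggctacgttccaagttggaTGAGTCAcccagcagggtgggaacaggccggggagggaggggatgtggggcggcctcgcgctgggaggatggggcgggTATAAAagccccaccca

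TATAAA begins 31 bases before the start in S100a4 and 17 bases before it in Anxa2. It was also found in Anxa1, thus in 3 of 8 members, and in 12.4% of the 32851 promoters of the same length. TGANTCA begins 136 and 38 bases before the start in S100a11 and 95 bases before it in Anxa2, in 2 of 8 members and 6.7% of all promoters. Of the other motifs searched on both strands, CACCC was found in 5 members and 52.0% of all promoters, CCACCC, which contains it, in 4 and 28.1%, GGGCGG in 2 and 32.7%, and CACGTG in 1 and 6.0%. CCACACCC, GGAANTCCC, TTCNNNGAA and CAGGTG were found in none of these 8 windows. A match is a run of letters and no evidence of binding.

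Before the results, the sorted cells were checked by markers. Foxp3, Il2ra and Lrrc32 together reached 76512 to 108869 RU on the arrays of Treg and TFR cells and at most 692 RU on the others, and Pdcd1, Cxcr5 and Bcl6 together reached 146349 to 653782 RU in TFH and TFR cells and at most 14396 RU in the others. The d25 array of TFH cells stood apart by B cell transcripts. Of 6 B cell genes, Cd79a and Ms4a1 had 1822 and 2738 RU there, compared to 255 and 246 RU in the d12 array of TFH cells, and the summed level of the list was 12034 RU against 1604 to 8574 RU on the other arrays. Pax5 was at the floor of 20 RU on all arrays, and Ebf1 on all but this one (60 RU). The d12 arrays shared 1 slide, while at d25 Tnaive and TFH cells were on another slide than Treg and TFR cells, so that day and slide cannot be told apart. Of further lists, 4 genes of CD8 T and NK cells together had 2882 to 6275 RU in all cell types. Within this list Klrb1c rose (4.10 ± 0.53, adjusted p = 0.00402) and Cd8b1 fell (-1.08 ± 0.16, adjusted p = 0.00605) in TFH versus Tnaive cells, and in TFR versus Treg cells Klrb1c, well above background on 1 of 2 Treg arrays, rose (3.92 ± 0.53, adjusted p = 0.0063) and Cd8b1 (-0.96 ± 0.16, adjusted p = 0.0111) and Cd8a (-1.18 ± 0.30, adjusted p = 0.0361) fell. Genes of antibody-secreting cells (Sdc1, Jchain, Prdm1) together reached 1715 to 8328 RU, and Cd4 and Cd3e 168152 to 268878 RU. Jchain was highest on the d12 Tnaive array (7466 RU, against 1157 RU at d25). Prdm1 was higher in TFR than in Treg cells (1.38 ± 0.22, adjusted p = 0.0093) and than in TFH cells (2.66 ± 0.22, adjusted p = 0.00263). In such sorted populations, a change in the share of expressing cells and a change of RNA per cell cannot be told apart either.

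**Figure D1:**
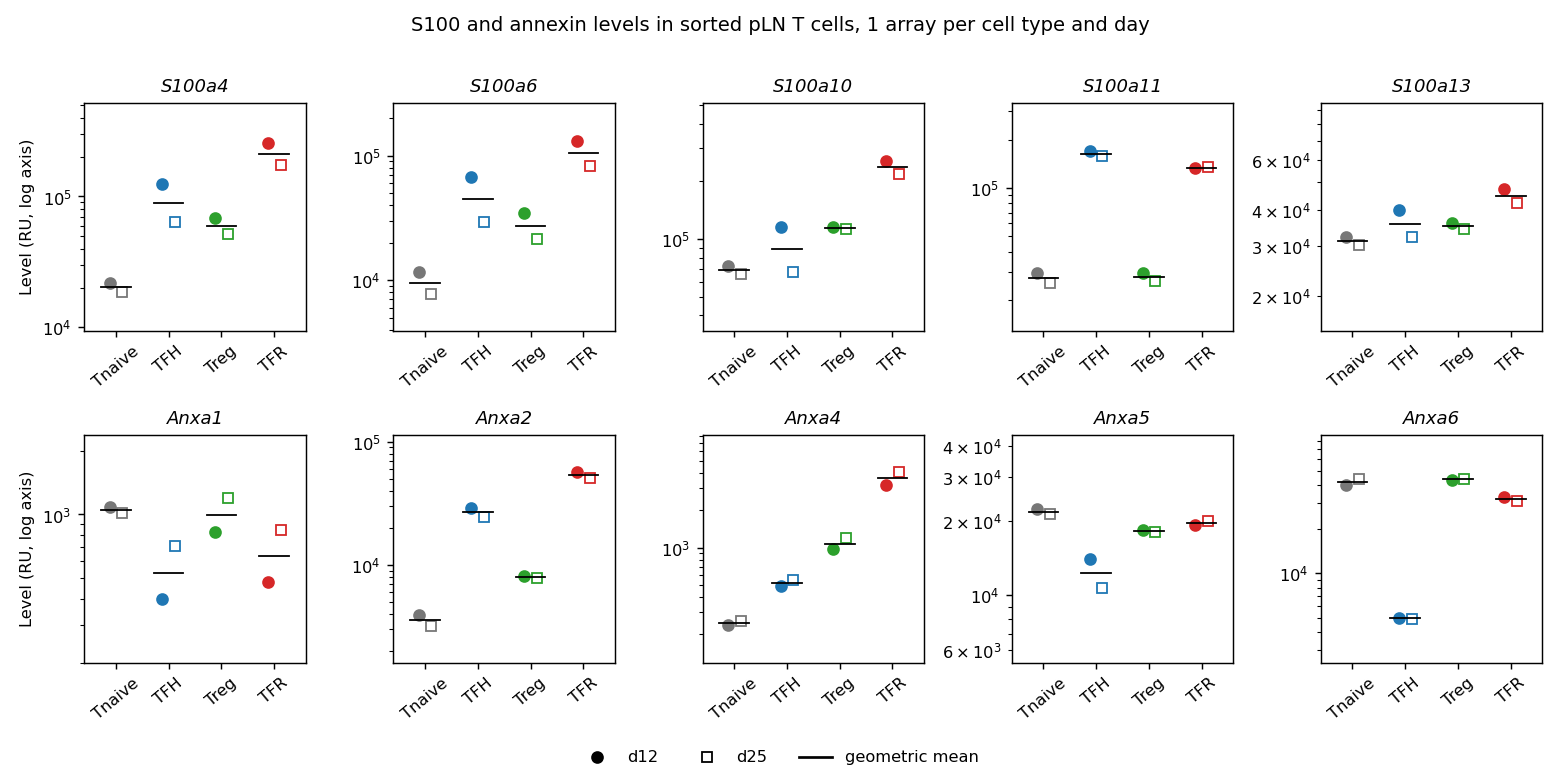
Levels of the 10 members in RU (log axis, own range for each gene) by cell type, with 1 filled circle for the d12 array, 1 open square for the d25 array and a line at their geometric mean. S100a4, S100a6, S100a10, Anxa2 and Anxa4 were highest on both TFR arrays, S100a11 was high in TFH and TFR cells alike, and Anxa6 was lowest on both TFH arrays.

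S100a4 (metastasin, a regulator of non-muscle myosin and cell motility) had a level of 21822 RU in Tnaive, 124231 in TFH, 67933 in Treg and 257954 in TFR cells at d12, and of 18693, 63958, 51897 and 174028 RU at d25. Both TFR arrays exceeded all others and both Tnaive arrays lay below all others, whereas TFH at d25 was lower than Treg at d12. S100a4 was higher by 2.14 ± 0.19 in TFH than in Tnaive cells (adjusted p = 0.00131) and by 1.84 ± 0.19 in TFR than in Treg cells (adjusted p = 0.00324). TFR exceeded TFH cells by 1.25 ± 0.19 (adjusted p = 0.0137) and Treg exceeded Tnaive cells by 1.56 ± 0.19 (adjusted p = 0.013), while the difference between TFH and Treg cells, 0.59 ± 0.19 with TFH higher on both days, did not pass the test (adjusted p = 0.0653).

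S100a6 (calcyclin, a partner of the ubiquitin ligase adaptor CACYBP) resembled S100a4. Its level in Tnaive, TFH, Treg and TFR cells was 11567, 67795, 34686 and 131929 RU at d12 and 7761, 29491, 21215 and 82579 RU at d25. TFR cells again had the highest level at each day, and TFH at d25 was lower than Treg at d12. The difference was 2.24 ± 0.17 between TFH and Tnaive cells (adjusted p = 0.000874) and 1.94 ± 0.17 between TFR and Treg cells (adjusted p = 0.00229). All neighbours in the order TFR, TFH, Treg and Tnaive differed, with the smallest step of 0.72 ± 0.17 from TFH to Treg cells (adjusted p = 0.0285). Whether this step differs from that of S100a4 was not tested. It crossed slides at d25, and alternatives were not examined for it. With slide in place of day, the steps from TFR to TFH and from Treg to Tnaive cells lost their calls (adjusted p = 0.0666 and 0.0724).

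S100a10 (p11, which forms the heterotetramer with annexin A2 and binds plasminogen) had 71898, 116049, 115736 and 255611 RU in Tnaive, TFH, Treg and TFR cells at d12 and 66053, 67566, 112945 and 219507 RU at d25. Both TFR arrays were about alike and above all others. TFH cells equalled Treg cells at d12 and Tnaive cells at d25. Accordingly, the rise from Treg to TFR cells was 1.05 ± 0.20 (adjusted p = 0.0157, lost without any one of the Treg or TFR arrays with adjusted p = 0.0535 to 0.102), and the difference between TFH and Tnaive cells, 0.36 ± 0.20, did not pass the test (adjusted p = 0.2), with 0.69 at d12 and 0.03 at d25.

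For these 3 genes the d25 array of TFH cells was the one with more B cell transcripts. Without it, the difference between TFH and Tnaive cells was 2.42 for S100a4, 2.51 for S100a6 and 0.69 for S100a10, and the last then passed the test (adjusted p = 0.0174). The part of the B cell signal in these levels was not tested.

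S100a11 (calgizzarin, a partner of annexins A1 and A2 in membrane repair) was high in both follicular cell types. Its level was 29441, 168706, 29455 and 132577 RU in Tnaive, TFH, Treg and TFR cells at d12 and 25519, 157279, 26413 and 134502 RU at d25. All 4 follicular arrays exceeded all 4 non-follicular ones without overlap. It was higher by 2.57 ± 0.09 in TFH than in Tnaive cells (adjusted p = 0.000177) and by 2.26 ± 0.09 in TFR than in Treg cells (adjusted p = 0.00048). Both TFR arrays lay below both TFH arrays, but the difference of -0.29 ± 0.09 did not pass the test (adjusted p = 0.0951), except with normexp (-0.38, adjusted p = 0.0275) and with a variance trend (adjusted p = 0.0304). Treg and Tnaive cells did not differ beyond their spread (0.03 ± 0.09, adjusted p = 0.904).

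S100a13, which takes part in the release of proteins without a signal peptide, varied least among the S100 members. Its 8 levels ranged from 30094 to 47375 RU with the highest in TFR cells at both days. The small rise of 0.35 ± 0.10 from Treg to TFR cells passed the test (adjusted p = 0.0453), but only narrowly: it was lost in 12 alternatives, including the removal of any Tnaive, Treg or TFR array. The order TFR, TFH, Treg and Tnaive held no step between neighbours that passed the test.

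Anxa2, the annexin that pairs with S100A10 at the plasma membrane, showed the largest rise of all members in both comparisons. Its level was 3930, 29155, 8138 and 57010 RU in Tnaive, TFH, Treg and TFR cells at d12 and 3223, 24600, 7868 and 51203 RU at d25. The 4 cell types did not overlap, and both days gave the same order. Anxa2 rose by 2.91 ± 0.10 from Tnaive to TFH cells (adjusted p = 0.000157), by 2.76 ± 0.10 from Treg to TFR cells (adjusted p = 0.000382), and was higher by 1.01 ± 0.10 in TFR than in TFH cells (adjusted p = 0.00389) and by 1.17 ± 0.10 in Treg than in Tnaive cells (adjusted p = 0.0042). Along with it moved proliferation transcripts: Mki67, Top2a, Birc5 and Ccnb1 together had 2138 and 1549 RU in Tnaive, 4968 and 4371 in Treg, 15683 and 10440 in TFH and 39005 and 25448 RU in TFR cells. S100a4 and S100a6 had the same order of cell types within each day. The part of proliferation transcripts in the levels of Anxa2, S100a4 and S100a6 was not tested.

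Anxa4, an annexin of membrane traffic and wound closure, had its own order with Foxp3+ cells on top. The level was 235, 491, 967 and 3201 RU in Tnaive, TFH, Treg and TFR cells at d12 and 253, 548, 1184 and 4076 RU at d25. No cell types overlapped, and Treg cells lay above TFH cells on both days. Anxa4 was higher by 2.80 ± 0.10 in TFR than in TFH cells (adjusted p = 0.000521) and by 2.14 ± 0.10 in Treg than in Tnaive cells (adjusted p = 0.00121). It was likewise higher in follicular cells, by 1.76 ± 0.10 in TFR versus Treg cells (adjusted p = 0.00081) and by 1.09 ± 0.10 in TFH versus Tnaive cells (adjusted p = 0.00138). A second Anxa4 probe remained at the floor on all arrays and gave no level.

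Anxa6, an annexin with a double core that tethers signaling and cholesterol-related proteins to membranes, showed the opposite behaviour in TFH cells. Its level was 40310, 4987, 43360 and 33204 RU in Tnaive, TFH, Treg and TFR cells at d12 and 43952, 4915, 44172 and 30965 RU at d25. Both TFH arrays lay far below the 6 others, and both TFR arrays lay between them and the Tnaive and Treg arrays. Anxa6 fell by 3.09 ± 0.09 from Tnaive to TFH cells (adjusted p = 0.000127), but by only 0.45 ± 0.09 from Treg to TFR cells (adjusted p = 0.0197). The difference between these changes was 2.64 ± 0.13 (adjusted p = 0.0033), with 2.63 at d12 and 2.65 at d25. The small fall in TFR cells lost its call when either Treg or either TFR array was omitted (adjusted p = 0.0694 to 0.12).

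Anxa5, known as the phosphatidylserine-binding protein used to stain dying cells, had 22268, 14063, 18414 and 19174 RU in Tnaive, TFH, Treg and TFR cells at d12 and 21275, 10665, 17972 and 20030 RU at d25. Both TFH arrays were the lowest, and the other 6 arrays lay close together. It fell by 0.83 ± 0.14 in TFH versus Tnaive cells (adjusted p = 0.00786), did not differ beyond its spread between TFR and Treg cells (0.11 ± 0.14, adjusted p = 0.565), and was higher by 0.68 ± 0.14 in TFR than in TFH cells (adjusted p = 0.0282). The fall lost its call without the d25 Tnaive array (-0.80, adjusted p = 0.0519), and the difference between TFR and TFH cells lost it in 9 alternatives, among them the omission of any array but the d12 array of TFH cells.

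Anxa1, an annexin that acts on formyl peptide receptors, had 1080, 399, 828 and 479 RU in Tnaive, TFH, Treg and TFR cells at d12 and 1016, 707, 1191 and 849 RU at d25. Within each day TFH and TFR cells were lower than Tnaive cells, but TFR at d25 was above Treg at d12. The difference between TFH and Tnaive cells was -0.98 ± 0.25 (adjusted p = 0.0298), with -1.44 at d12 and -0.52 at d25, and that between TFR and Treg cells was -0.64 ± 0.25 (adjusted p = 0.102, or 0.0304 without either Tnaive array). The first lost its call in 12 alternatives, among them the removal of any array but the d25 array of Tnaive cells. A second Anxa1 probe, well above background on 5 arrays, gave -0.99 (adjusted p = 0.097).

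**Figure D2:**
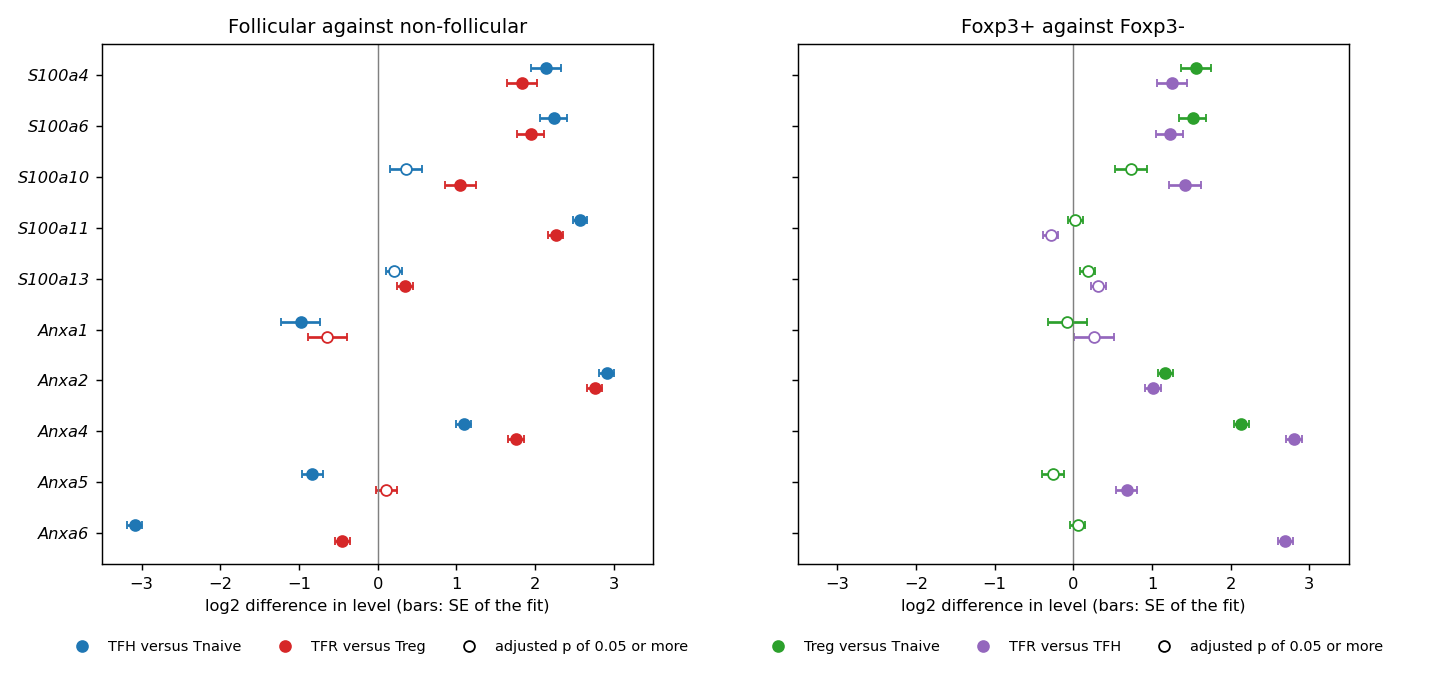
Estimated log2 differences of the 10 members with their standard errors, on the left between follicular and non-follicular cells and on the right between Foxp3+ and Foxp3- cells. Filled points passed an adjusted p of 0.05. Anxa2, S100a11, S100a6 and S100a4 rose in both comparisons on the left, Anxa6 fell by 3.09 in TFH and by 0.45 in TFR cells, and Anxa4 and Anxa6 had the largest differences between TFR and TFH cells (2.80 and 2.70).

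The members were chosen with earlier results of these data known. Counts and medians over them therefore describe this list and are no test of the families. The same holds for the further gene lists below. Counted over the members, 5 rose (S100a4, S100a6, S100a11, Anxa2 and Anxa4) and 3 fell (Anxa1, Anxa5 and Anxa6) in TFH versus Tnaive cells. Among all genes tested 46.5% changed, 20.9% higher and 25.6% lower, and the median difference was 0.73 over the members and -0.07 over all genes. In TFR versus Treg cells 7 members rose, namely the same 5 along with S100a10 and S100a13, and only Anxa6 fell, where 39.6% of all genes changed, 18.7% higher and 20.9% lower. The medians were 1.40 and -0.08. Both comparisons lay within slides. Without any one of the Treg or TFR arrays, the latter gave fewer called members and fewer called genes among all tested.

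The comparison of both follicular cell types gave 7 members higher in TFR than in TFH cells (S100a4, S100a6, S100a10, Anxa2, Anxa4, Anxa5 and Anxa6) and none lower, where 22.1% of all genes differed, 11.6% higher and 10.5% lower. The members' median was 1.12 and that of all genes -0.02. At d25 this comparison crossed slides. With slide in place of day 3 members remained, Anxa2, Anxa4 and Anxa6, where 1349 of 15764 genes were called, against 3486 with day. Without either TFR array fewer members and fewer of all genes were called. Without those arrays S100a4, S100a6 and S100a10 kept differences of 1.15 to 1.47.

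Between Treg and Tnaive cells, 4 members were higher in Treg cells (S100a4, S100a6, Anxa2 and Anxa4) and none was lower, where 9.88% of all genes differed, 5.89% higher and 3.98% lower. The medians were 0.46 and -0.02. The calls of S100a4 (1.56 ± 0.19) and S100a6 (1.52 ± 0.17) were lost without the d12 Tnaive array (1.35 and 1.37) or either Treg array (1.46 to 1.65), which left Anxa2 and Anxa4. That of S100a4 was also lost without either TFR array (1.56, adjusted p = 0.0512). This comparison crossed slides at d25, and with slide in place of day both calls were lost (adjusted p = 0.0863 and 0.0724). Within the d12 slide the differences were 1.64 and 1.58. S100a10 (0.73 ± 0.20, adjusted p = 0.0942) did not pass the test, but did so without either TFH array (adjusted p = 0.0221) and with a variance trend (adjusted p = 0.0438).

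The remaining pairs of cell types share no gate and were compared only for the order of levels. In TFH versus Treg cells 3 members were higher (S100a6, S100a11 and Anxa2) and 4 lower (Anxa1, Anxa4, Anxa5 and Anxa6), where 39.8% of all genes differed, 18.8% higher and 21.0% lower. TFR versus Tnaive cells gave 7 members higher and only Anxa6 lower (-0.39 ± 0.09, adjusted p = 0.0214), where 53.1% of all genes differed, 23.4% higher and 29.7% lower. Among the 7 were Anxa2 (3.92 ± 0.10, adjusted p = 7.18e-05) and Anxa4 (3.89 ± 0.10, adjusted p = 7.59e-05).

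Whether the follicular change differed between Foxp3+ and Foxp3- cells was tested directly. Anxa6 was the only member for which it did, with a higher value in Foxp3+ cells, where 8.49% of all genes differed, 4.03% higher and 4.46% lower. The next values were Anxa5 with 0.94 ± 0.19 (adjusted p = 0.0532) and Anxa4 with 0.66 ± 0.14 (adjusted p = 0.0569). Anxa5 passed with 75th percentile scaling, normexp, genes well above background on all arrays and a variance trend (0.92 to 1.03), and Anxa4 with normexp (0.82) and genes well above background on all arrays (0.66). Without the d12 array of TFH cells, Anxa5 (1.13, adjusted p = 0.0319) and S100a10 (1.02, adjusted p = 0.0425) passed as well. The 3 members that rose most in both cell types, S100a11, Anxa2 and S100a6, gave differences between the changes of -0.31, -0.16 and -0.29, which did not pass the test, and this does not show that the changes were equal.

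**Figure D3:**
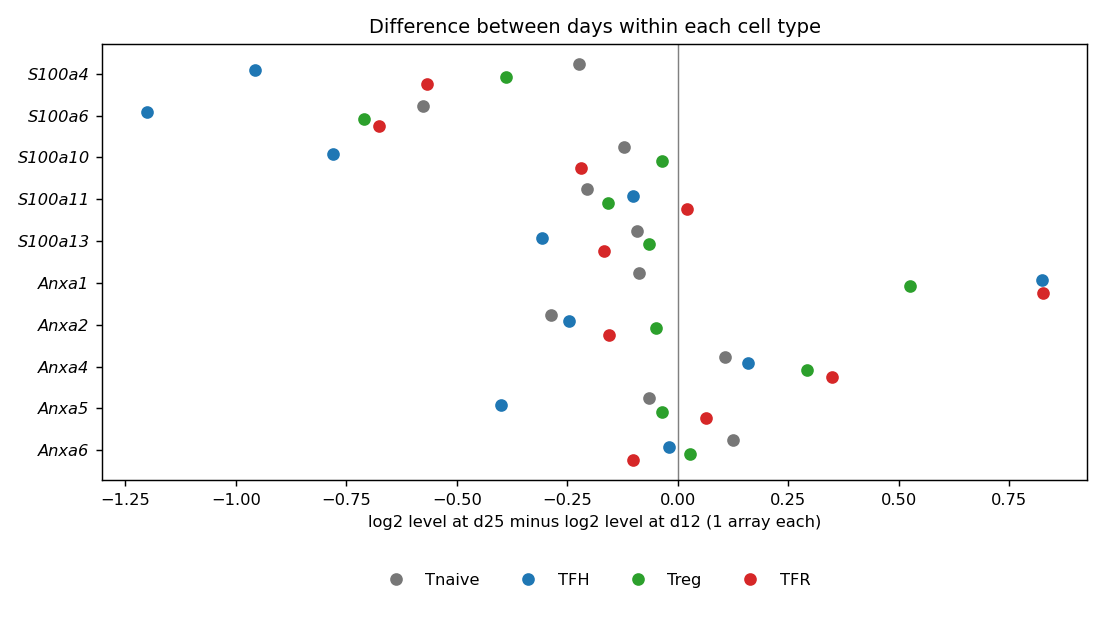
Log2 level at d25 minus that at d12 for each member, with 1 point for each cell type and 1 array behind each level. S100a4, S100a6, S100a10, S100a13 and Anxa2 were lower at d25 in all 4 cell types, Anxa4 was higher in all 4, and the widest differences were those of S100a6 (-1.20) and S100a4 (-0.96) in TFH cells, followed by Anxa1 in TFR and TFH cells (0.83 each).

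Between the days, no member passed the test by limma, where 11 of 15764 genes did (0.0698%, with 0.019% higher and 0.0507% lower at d25). At an unadjusted p below 0.05, 2 members were higher and 3 lower at d25. The share of all genes at that threshold was not counted, so this count has no background to be read against. The widest difference was that of S100a6 with -0.79 ± 0.12 (adjusted p = 0.068), with -0.58 in Tnaive, -1.20 in TFH, -0.71 in Treg and -0.68 in TFR cells. S100a4 was next to it with -0.53 ± 0.14 (adjusted p = 0.101). Anxa1 was higher at d25 by 0.52 ± 0.18 (adjusted p = 0.144) but not in Tnaive cells (-0.09).

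The array annotation held 20 other gene names that begin like those of both families, of which 11 were tested. S100pbp is among the 11 by its name only, as it encodes an S100P-binding protein and not an S100 protein. In TFH versus Tnaive cells 7 of these rose and none fell, where 20.9% of all genes rose and 25.6% fell. In TFR versus Treg cells 8 rose and none fell, where 18.7% of all genes rose and 20.9% fell. The medians of these 11 genes were 1.66 and 0.69. Anxa3 and S100a5 passed the filter on dim probes only through follicular cells, where they were high. A fall could hardly be called for them, so the counts and medians are partly set by the filter. S100a1, which binds calcium-handling proteins in muscle, had 85, 433, 118 and 500 RU in Tnaive, TFH, Treg and TFR cells at d12 and 93, 419, 104 and 462 RU at d25. All follicular arrays were above all others, by 2.26 ± 0.11 in TFH (adjusted p = 0.000256) and 2.11 ± 0.11 in TFR cells (adjusted p = 0.000632). S100a2 rose by 1.89 and 0.76, S100a3 by 1.67 and 1.25 and Anxa11 by 0.35 and 0.56 in TFH versus Tnaive and TFR versus Treg cells, respectively.

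Other genes of these families rose from levels near background. A lower bound of the fold was taken there, from the mean of the brighter cell type. For the dimmer one, a level below an array's dimmest signal scored well above background was raised to that signal. S100a5 was at least 2.44-fold higher in TFH than in Tnaive and at least 2.10-fold higher in TFR than in Treg cells. Its calls are no separate support, since it passed the filter only through TFH and TFR cells. Anxa13 was at least 3.19-fold higher in TFH than in Tnaive cells, where it was well above background on 1 of 2 arrays (adjusted p = 0.0104), and rose by 1.97 ± 0.32 in TFR cells (adjusted p = 0.00966).

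Anxa3 was well above background in TFH cells only, with 83 and 419 RU against 20 to 34 RU on all other arrays. It was at least 3.20-fold higher than in Tnaive cells, but it passed the filter only through TFH cells, so its call is no separate support. Its high value was on the d25 array with more B cell transcripts, whose part in it was not tested. Anxa7 (0.52, adjusted p = 0.0499) and S100a16 (0.69, adjusted p = 0.0146) rose in TFR versus Treg cells, whereas S100pbp and Anxa9 passed neither test. No gene of this group passed the limma test in TFR versus TFH or in Treg versus Tnaive cells. Of all genes, 22.1% and 9.88% did. At an unadjusted p below 0.05 were 4 and 3 of the group, and the share of all genes at that threshold was not counted.

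S100a8 and S100a9, the calprotectin subunits of neutrophils and monocytes, were not tested. S100a8 was at the floor of 20 RU on 7 arrays with 75 RU in Treg cells at d25, and S100a9 reached at most 131 RU, on the same array. Of 10 myeloid genes, Mpo and Adgre1 were not well above background on any array, and 6 were tested. In TFH versus Tnaive cells, Cd68 (2.98 ± 0.16, adjusted p = 0.000355) and Cst3 (0.43 ± 0.12, adjusted p = 0.0333) rose and Itgam (-0.51 ± 0.12, adjusted p = 0.0208) and Csf1r (-0.38 ± 0.11, adjusted p = 0.0452) fell. In TFR versus Treg cells Cd68 alone passed the test (2.76 ± 0.16, adjusted p = 0.000884). The summed level of the list was 49448 to 67091 RU, with non-overlapping ranges in TFR (63781 and 64698 RU) and Treg cells (55899 and 57573 RU).

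**Figure D4:**
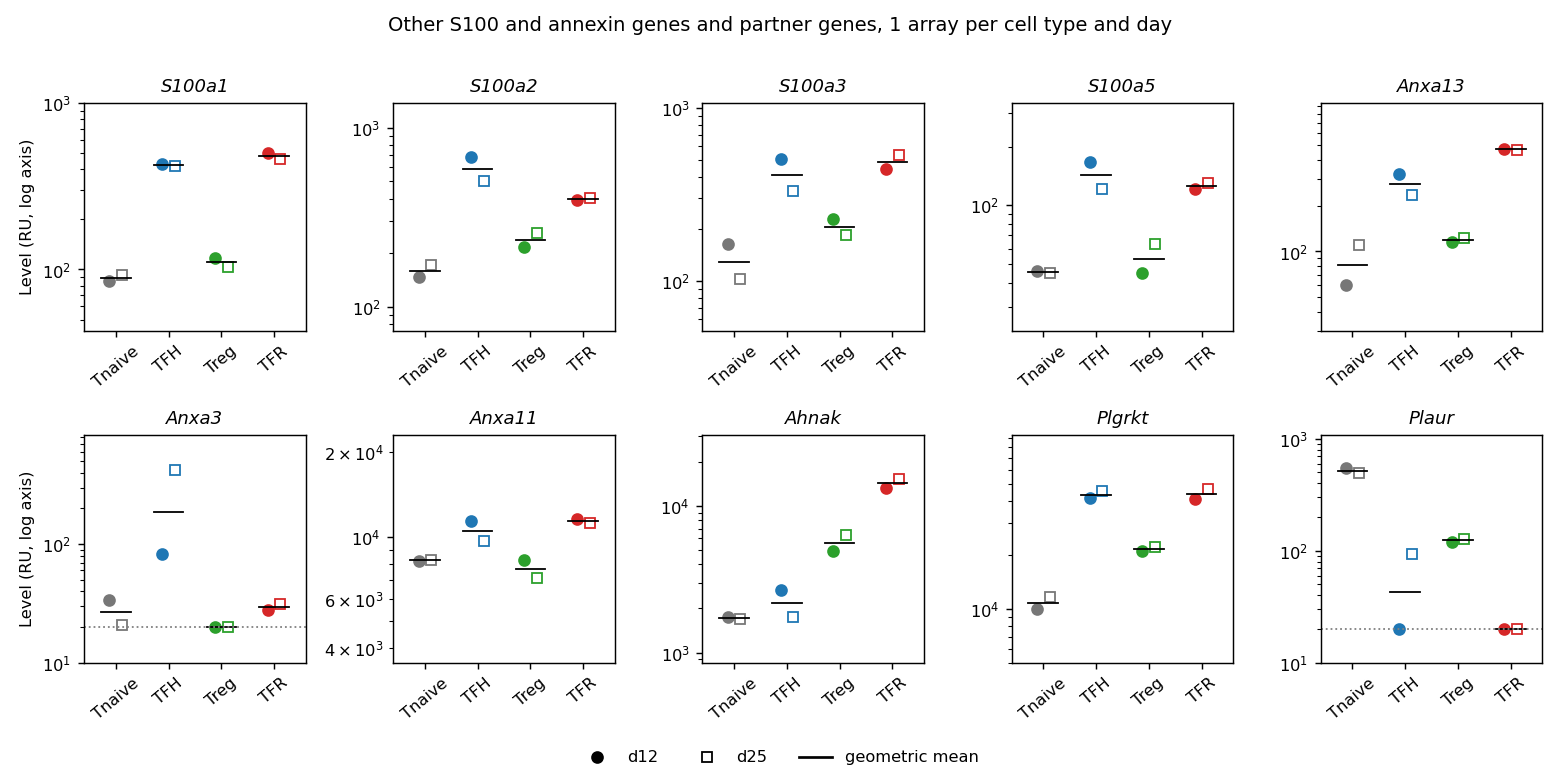
Levels in RU (log axis, own range for each gene) of 7 other S100 and annexin genes and of the partner genes Ahnak, Plgrkt and Plaur, with circles for d12, squares for d25, a line at the geometric mean and a dotted line at the floor of 20 RU. S100a1 was between 419 and 500 RU in follicular and at most 118 RU in non-follicular cells, Ahnak was highest in TFR cells, and Plaur was at the floor on both TFR arrays.

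Of 21 genes for known partners and receptors of these proteins, 9 were tested. In TFH versus Tnaive cells 2 rose and 2 fell, where 46.5% of all genes changed. In TFR versus Treg cells 2 rose and 1 fell, where 39.6% of all genes changed. Both counts were close to these shares, and the medians were 0.00 and -0.11. Ahnak, the large scaffold bound by the S100A10 and annexin A2 complex, had 1751, 2684, 4959 and 13238 RU in Tnaive, TFH, Treg and TFR cells at d12 and 1706, 1750, 6287 and 15276 RU at d25. It was highest on both TFR arrays and overlapped between TFH and Tnaive cells. It was higher in TFR than in Treg cells (1.35 ± 0.25, adjusted p = 0.0139) and in TFR than in TFH cells (2.71 ± 0.25, adjusted p = 0.00341), without passing the test in TFH versus Tnaive cells (0.33 ± 0.25, adjusted p = 0.327).

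Plgrkt, a plasminogen receptor, had 9992 and 11606 RU in Tnaive cells at d12 and d25 and rose in TFH cells (41516 and 45494 RU, 2.01 ± 0.08, adjusted p = 0.000212), and by 1.03 ± 0.08 from Treg to TFR cells (adjusted p = 0.00191). Plaur, the urokinase receptor, had 543 and 489 RU in Tnaive cells. It was at least 8.55-fold lower in TFH cells (levels of 20 and 93 RU) and at least 2.66-fold lower in TFR than in Treg cells. Its calls are no separate support, since it passed the filter only through Tnaive and Treg cells. The activators Plau and Plat were not tested, with levels of 20 to 24 RU. Rasa1, a Ras GTPase activating protein that binds annexin A6, rose by 1.29 ± 0.12 in TFH versus Tnaive cells (adjusted p = 0.00149). It was also higher in Treg than in Tnaive cells (1.30 ± 0.12, adjusted p = 0.00574), its difference between TFR and Treg cells was -0.16 ± 0.12 (adjusted p = 0.331), and the difference between the follicular changes was -1.45 (adjusted p = 0.0146). The formyl peptide receptor genes Fpr1, Fpr2 and Fpr3 and Ager, coding the receptor RAGE, were not tested either, with levels of 20 to 29 RU.

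A list of 14 genes that distinguish activated and effector from resting T cells was set beside the members. In TFH versus Tnaive cells 4 of them rose and 8 fell (median -1.42), where 20.9% of all genes rose and 25.6% fell. In TFR versus Treg cells 6 rose and 4 fell (median 0.28), where 18.7% of all genes rose and 20.9% fell. The genes of recirculation S1pr1 and Klf2 gave differences of -4.44 ± 0.18 and -4.35 ± 0.22 between TFH and Tnaive cells (adjusted p = 0.000209 and 0.000305) and of -3.20 and -2.43 between TFR and Treg cells, that is, both fell in both comparisons. In TFR versus TFH cells 12 genes of the list were higher and 1 was lower, where 11.6% of all genes were higher and 10.5% lower. Emp3, a small membrane protein, fell by 2.98 ± 0.11 from Tnaive to TFH (adjusted p = 0.00017) and by 0.58 ± 0.11 from Treg to TFR cells (adjusted p = 0.014). Its difference between the changes was 2.41.

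Finally, the members were compared with all genes by the Pearson r over the 8 arrays, given as a description, since arrays of 1 cell type are close to each other and many genes follow the cell type. Among 5870 genes scored well above background on each array and varying by at least 1 log2 unit, S100a4 and S100a6 were among the 3 closest to each other (r = 0.995), together with Serhl and Asns for both. Rrm2 (0.999), Mki67 (0.997) and Maged1 (0.996), of which the former 2 are genes of dividing cells, were closest to Anxa2. Axl (0.993), Fam132a (0.991) and H2afz (0.990) were closest to Anxa4, and Qtrtd1 (0.991), Slc39a10 (0.982) and Cse1l (0.978) to Anxa1. Ndrg1 (0.996), Emp3 (0.995) and Rara (0.992) were closest to Anxa6. Within the members, S100a10 and its partner Anxa2 had an r of 0.757, S100a11 and Anxa2 of 0.911, S100a11 and Anxa1 of -0.794, and Anxa5 and Anxa6 of 0.899.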

How the data were processed

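The authors extracted the spots of 8 one-color Agilent arrays with Agilent Feature Extraction 10.7.3.1 (per the labels) and deposited the background-corrected spot intensities along with a table of normalized intensities. As they describe, spots were excluded by software flags, an interquartile rule over the 4 spots of a probe and a pixel coefficient of variation above 0.5. The geometric mean of the spots was then normalized by quantiles and scaled to a 75th percentile of 1500, and values below 20 were set to 20. Here, the spots were taken through the same steps. Between 86.45% and 89.18% of the spots were kept, 18261 to 19867 of 39429 probes per array were well above background, and log2 values correlated with the authors' table at r = 0.9994 over probes on each array, with the brightest 1% higher here by a median of 0.51. Array number limits the precision.

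The values were fitted with limma 3.58.1 in R 4.3.3 (lmFit and eBayes). Terms for cell type and for day were additive, which left 3 residual degrees of freedom. Since the methods' ANOVA needs replicates for each cell type and day, it was not run. Tested were 15764 genes whose brightest probe was well above background (over 50% of spots) in at least 1 cell type on both of its arrays. Scripts were tested on simulated data. Named were all 10 members, other genes of both families that were tested, at most 4 partner genes and 4 effector genes with the largest called changes, and the 3 genes most like S100a4, S100a6, Anxa1, Anxa2 and members ranging over more than 3 log2 units. Results of some listed genes are not reported here. Genes at or near the floor and members of the marker lists were added for their roles. Members and lists were chosen with earlier results of these data known. The lists of partners, effector genes and markers come from general knowledge, and 12 of 12 member probes with a RefSeq transcript carried the same symbol in the GRCm38.p6 table. Alternatives were scaling without quantile normalization, normexp, the deposited normalized values, no spot exclusion, no filter or a stricter one, the mean or other probes, no day term, slide as a block, trend in eBayes, a fold threshold, and each array left out. Contrasts of TFH with Treg and TFR with Tnaive cells were added after the data were seen, for the order of cell types.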

Additional observations from a re-analysis of the deposited data

Results flagged for a closer look

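Anxa6 stood out because the change from the non-follicular to the follicular cell type differed between Foxp3+ and Foxp3- cells by a test of the difference itself. The difference between the changes was 2.64 ± 0.13 on the log2 scale (limma, adjusted p = 0.0033), with a fall in TFH cells to 4987 and 4915 RU while TFR cells had 33204 and 30965 RU. It lay between 2.50 and 2.73 in the alternatives and passed the test in each of them.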

How the results depend on the processing

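Of the 28 member differences that passed the test, 17 kept their call in every alternative and 11 lost it in at least 1, and none reversed. In all, 71 of 509 alternative values lost the call. Among the 22 that had not passed, 17 of 401 values gained a call. The number of members called (8, 8, 7, 4, 1 and 0 for TFH versus Tnaive, TFR versus Treg, TFR versus TFH, Treg versus Tnaive, the difference between the follicular changes, and day) moved as follows. For TFR versus TFH it was 3 without a filter on dim probes and 3 with slide as a block, and for Treg versus Tnaive it was 2 in both settings and without the day term. For the difference between the changes it was 2 with 75th percentile scaling alone, 3 with normexp, 3 with genes well above background on all arrays, and 2 with a variance trend, and for day it was 1 in the last 3 of these. With single arrays left out, members called were 7 to 8, 5 to 8, 3 to 7, 2 to 5, 1 to 3 and 0, in the same order. The 5 followed the omission of any Treg or TFR array, the 3 in TFR versus TFH that of either TFR array, the 2 that of the d12 Tnaive or either Treg array, and the 3 in the difference between the changes that of the d12 TFH array. A cell type with a single array left was assumed to vary like the others. Apart from these constructions, with fewer samples or more genes tested, the cause was not tested.

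Differences near 0 changed sign without a call on either side. S100a11 in Treg versus Tnaive cells was -0.0772 with 75th percentile scaling and -0.0175 with slide as a block, and -0.0383 to 0.0887 with single arrays left out. Anxa6 in the same comparison was -0.0572 with that scaling and -0.022 to 0.13 with single arrays left out. Anxa1 there was 0.061 with the mean of its probes, 0.20 with its other probe and -0.48 to 0.33 with single arrays left out, its difference between the changes was -0.0662 to 0.75, and Anxa5 in TFR versus Treg cells was -0.00745 to 0.22.

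Over all genes tested, the number called ranged in the alternatives from 3267 to 7819 for TFH versus Tnaive (7332 as reported), 2494 to 6806 for TFR versus Treg (6249), 942 to 4249 for TFR versus TFH (3486), 416 to 2064 for Treg versus Tnaive (1557), 292 to 1816 for the difference between the changes (1339), and 0 to 1095 for day (11). The share of all genes beside a member count moves with it. The second Anxa4 probe, at the floor, gave no alternative. The labels give no replicate numbers, and the arrays of the cell types are paired by day, which is a term of the fit. All 10 members were well above background, and the number of arrays limits the precision of each difference.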
